A study of Mus musculus with 14 samples.

Results

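Amino acids enter and leave cells through membrane carriers, and the genes described here belong to 7 mouse carrier subfamilies: Slc1a, Slc3a, Slc6a, Slc7a, Slc36a, Slc38a and Slc43a. Members were chosen by symbol, and each needed 10 or more counts in at least 3 libraries of each of the 2 count tables. Of 60 such symbols, 34 met this rule and 26 did not, out of 53735 symbols in the series. The members were 8 Slc7a genes, 9 Slc38a genes, 6 Slc1a genes, 4 Slc6a genes, 3 Slc36a genes, 3 Slc43a genes and 1 Slc3a gene. The choice by name also takes in carriers known from lysosomes or vesicles, such as Slc38a9, and a carrier of nucleobases, Slc43a3. RNA levels do not show where a carrier sits.

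The study measured poly(A) RNA of whole hearts from male C57BL/6 mice in which Fam210a, a gene for a mitochondrial inner membrane protein, was deleted in cardiomyocytes. Knockout hearts (cKO) were Fam210a fl/fl and carried alphaMHC-MCM, a tamoxifen-activated Cre driven by the cardiomyocyte Myh6 promoter, so other heart cells keep the gene. Control hearts carried alphaMHC-MCM without the floxed alleles, and both genotypes had received tamoxifen. One table held 4 knockout and 4 control libraries from hearts taken about 5 weeks after tamoxifen (early), when heart function was described as normal. The other held 3 and 3 libraries from hearts taken at about 10 weeks (late), when heart function was described as severely reduced. Knockouts were compared with the controls of their own table, and no level was tested between the tables, because weeks after tamoxifen and table cannot be told apart. The libraries of a group carry different numbers in their names, but the labels do not say that each number is its own mouse. The p-values therefore cover only library-to-library spread, part or all of which may be technical.

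Slc3a2 encodes the CD98 heavy chain, a glycoprotein that carries light chains such as the Slc7a5 and Slc7a6 products to the plasma membrane, where they exchange one amino acid for another. The Slc38a, Slc1a and Slc6a carriers use the sodium gradient to load cells with neutral amino acids, glutamate, glycine, taurine or creatine. Heart muscle takes up creatine and taurine from the blood and uses amino acids for protein synthesis, as signals to mTORC1 and, to a lesser degree, as fuel.

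The targeted gene Fam210a was at 64.6 to 70.8 CPM (counts scaled to library size, with normalization factors) in the late knockout libraries and at 120 to 134 CPM in the late controls. At the early time it was at 135 to 158 CPM in knockout and 165 to 178 CPM in control libraries, groups that did not overlap and were not called different. Library totals were 15657298 to 19466469 counts early and 29989076 to 35750964 late. Early knockout replicate 4 is named a knockout by its title but given the control genotype in another field, so early calls are given with and without it. Its Fam210a was at 150 CPM, below every early control. Atf5, a stress-response transcription factor, was at 105 CPM or more in every early knockout, replicate 4 among them, and at most 42.5 CPM in early controls. Late knockout replicate 3 differed more from the other late knockouts (chi-square per gene of 105 and 99.5) than those differed from each other (21.3). The counts of late calls are given with and without it, and members whose call changed without it are named. The share of counts from mitochondrial genes was 11.2 to 16.0% in late knockout and 19.7 to 22.6% in late control libraries.

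Markers of the cells in a heart were read beside the carriers. All of the 8 cardiomyocyte markers were tested late, 2 rose and 3 fell, and their summed level was 54707 to 63742 CPM in knockout and 58728 to 66003 CPM in control libraries. Of the 8 endothelial markers 7 fell, to sums of 421 to 466 CPM against 963 to 1168. Of the 8 macrophage markers 7 fell, to sums of 180.0 to 232 CPM against 368 to 375, and of the 8 fibroblast markers 5 fell, to sums of 1727 to 1936 CPM against 3216 to 4044. Of the 8 smooth muscle and pericyte markers 2 rose, Acta2 among them (log2 2.80), and 6 fell. Their sums were higher in knockouts, at 1773 to 2462 CPM against 1526 to 1614. All 6 red cell markers rose, to sums of 198 to 380.4 CPM against 42.7 to 74.3. The summed Schwann cell and neuron markers were at 436 to 679 CPM in late knockouts and 24.2 to 28.9 CPM in late controls, although 4 of 5 tested fell and only Uchl1, a neuronal hydrolase, rose. Beside these counts, 65.0% of all genes tested were called late (31.8% up and 33.2% down). No cardiomyocyte, endothelial, macrophage, fibroblast, smooth muscle or pericyte marker was at 0 in every library. No gene of these marker lists was called early, when 0.613% of all genes tested were. Lgals3 (galectin-3), abundant in macrophages and on none of the lists, was picked after its values were seen: it rose early (log2 1.96, edgeR adjusted p = 0.0121) and late (log2 7.0, adjusted p = 1.5e-07). Early knockout replicate 2 had summed atrial markers of 1480.0 CPM, against 57.6 to 223 CPM in the other early knockouts and 62.2 to 334 CPM in early controls. Late, the atrial sums were 1751 to 2890 CPM in knockouts and 131 to 948 CPM in controls. Of the 5 atrial markers 1 rose late (Nppa) and 1 fell (Bmp10). In whole-heart RNA, fewer cells of a type and less RNA per cell cannot be told apart, and the part of these shifts in the carrier results was not tested.

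At 5 weeks, 3 carrier genes rose and none fell. The 3 were Slc7a5, Slc3a2 and Slc6a9, of 33 members tested with edgeR's quasi-likelihood test at an adjusted p under 0.05. Among all genes tested 0.613% were called (0.517% up and 0.0961% down). The median log2 fold change of the members was -0.01, beside 0.00 over all genes. Knockout and control libraries did not overlap for 7 members on the higher side (Slc1a2, Slc1a4, Slc36a4, Slc38a1, Slc3a2, Slc6a9 and Slc7a5) and for 3 on the lower side (Slc1a7, Slc38a3 and Slc7a4), where 2.98% and 2.68% of all genes did the same (5.65% in either direction). Without early knockout replicate 4 the same 3 genes were called up, and Slc38a3 was also called down (log2 fold change -0.27, edgeR adjusted p = 0.0400), where 1.32% of all genes tested were called. The 34th member, Slc7a3, was too low to be tested early.

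At 10 weeks, 15 carrier genes rose, 11 fell and 8 were not called. Calls were common in these hearts: 65.0% of all genes tested passed (31.8% up and 33.2% down), beside 76.5% of the members. The members' median log2 fold change was 0.26, with a range of -5.41 to 7.64, and the median of all genes was -0.02. Some members met the rule only through the group where they are high. Slc7a3, at the top of that range, reached 10 counts early in 3 knockouts and 0 controls, and Slc1a2 in 4 and 1. Slc1a7 did so late in 3 controls and 0 knockouts. Slc36a2, Slc7a4 and Slc38a11 did so late in fewer than 3 knockouts. Their presence in these counts follows in part from their difference. Without late knockout replicate 3, 18 members were called up and 11 down, and 69.7% of all genes tested were called. The late libraries did not overlap for 16 members with knockouts higher and 13 with knockouts lower, as for 34.0% and 35.9% of all genes (69.8% in either direction). By subfamily, 4 of 4 Slc6a genes and the single Slc3a gene rose, 4 of 8 Slc7a genes rose and 3 fell, 3 of 9 Slc38a genes rose and 5 fell, and 2 of 6 Slc1a genes rose and 2 fell. In Slc43a 1 of 3 rose, and in Slc36a 1 of 3 fell. The subfamily medians ran from -0.39 in Slc38a and -0.26 in Slc1a to 0.80 in Slc7a, 1.18 in Slc6a and 2.31 for Slc3a2.

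**Figure D1:**
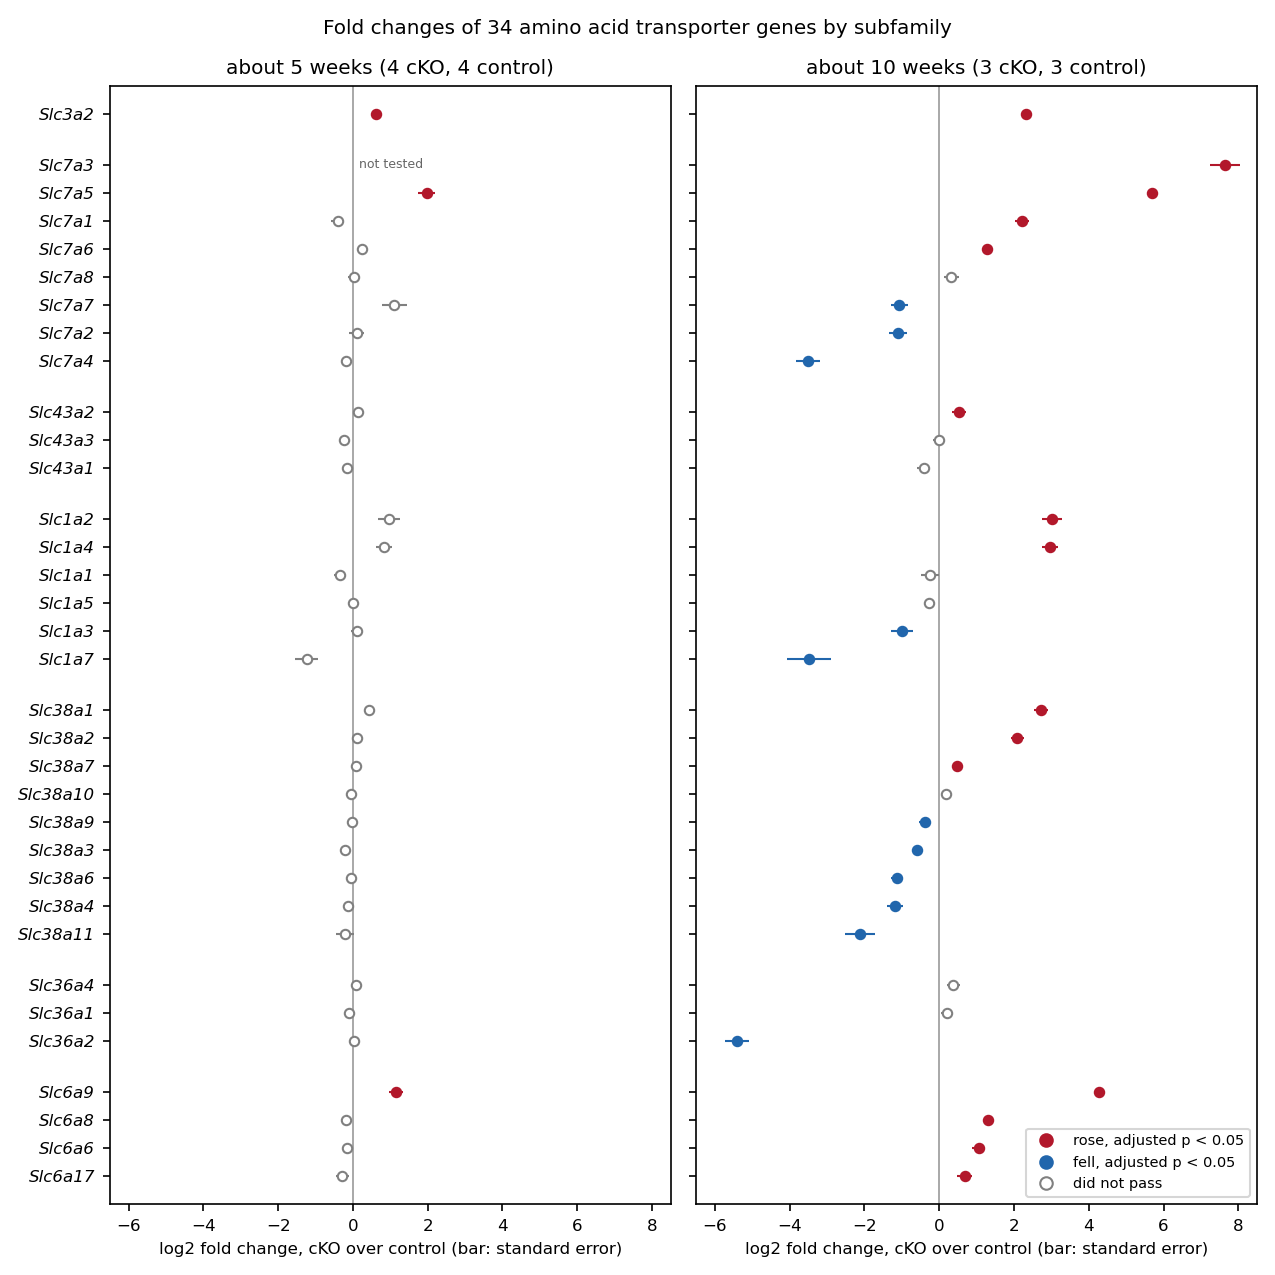
Log2 fold change of knockout against control for each member, grouped by subfamily, early and late, with bars of 1 standard error; filled points passed edgeR's test. The early values lie between -1.23 and 1.97, and the late values spread from -5.41 to 7.64, with both directions within Slc1a, Slc7a and Slc38a.

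The CD98 heavy chain and its light chain Slc7a5 (LAT1, which carries leucine, phenylalanine and other large neutral amino acids) moved the same way at both times. Slc7a5 stood at 22.6, 27.1, 28.9 and 12.8 CPM in the early knockout libraries and at 5.21, 5.93, 5.26 and 6.99 CPM in the early controls. Late, it stood at 258, 261 and 294 CPM in knockout and at 5.15, 5.34 and 5.22 CPM in control hearts. Every knockout library lay above every control at both times, and the lowest early knockout was replicate 4, the library with conflicting labels. The log2 fold change of Slc7a5 was 1.97 ± 0.22 (SE) early (3.91-fold, edgeR adjusted p = 0.00164) and 5.69 ± 0.13 late (51.7-fold, adjusted p = 4.3e-08). Without early knockout replicate 4 the early value was 2.16 (adjusted p = 1.64e-06). The gene lies at chr8:121881150-121907694 on the minus strand of GRCm38.

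Slc3a2 (chr19:8706882-8723369, minus strand) stood at 57.2, 70.4, 67.7 and 50.4 CPM in early knockouts and at 39.2, 42.9, 40.8 and 36.7 CPM in early controls. In the late hearts it stood at 214, 211 and 259 CPM in knockouts and at 48.4, 47.7 and 41.7 CPM in controls. The groups did not overlap at either time, and replicate 4 was again the lowest early knockout. Slc3a2 rose 1.54-fold early (log2 0.62 ± 0.10, edgeR adjusted p = 0.0121) and 4.96-fold late (log2 2.31 ± 0.13, adjusted p = 1.37e-06). The early call was narrowly lost when control replicate 4 was left out (adjusted p = 0.0515).

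Among the members, the light chains Slc7a6, Slc7a7 and Slc7a8 did not follow Slc7a5 in size. Slc7a6 (y+LAT2, an exchanger of cationic for neutral amino acids) stood at 36.3, 33.8 and 34.5 CPM in late knockouts and at 14.2, 14.3 and 14.7 CPM in late controls, a rise of 2.41-fold (edgeR adjusted p = 1.14e-05). Slc7a8 (LAT2) stood at 4.25 to 7.02 CPM in late knockouts and 4.46 to 4.77 CPM in late controls, ranges that overlapped, and was not called (log2 0.33 ± 0.20, adjusted p = 0.18). The lowest of those knockouts was replicate 3, and without it Slc7a8 was called up (log2 0.52, adjusted p = 0.0125).

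Slc7a7 (y+LAT1) fell late, from 2.77, 2.83 and 4.08 CPM in controls to 1.63, 1.31 and 1.71 CPM in knockouts (log2 -1.06 ± 0.23, edgeR adjusted p = 0.00321). It shares 7.0% of its exon bases with Oxa1l on the other strand, which was at means of 75.0 CPM in late knockouts and 102.7 CPM in late controls and fell too (log2 -0.45, adjusted p = 0.0114), and without strand the reads of the overlap cannot be told apart. Early it stood at 4.06, 10.4, 4.54 and 2.78 CPM in knockouts and at 2.57, 1.98, 2.88 and 2.61 CPM in controls, and was not called (log2 1.11 ± 0.35, adjusted p = 0.261). One library, early knockout replicate 2, stood far above the rest. The summed macrophage markers of that library were 412 CPM, against 282 to 334 CPM in the other early knockouts, and without it the early log2 value of Slc7a7 was 0.60. The link between these values was not tested.

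Per length of exon, the sum of the 4 light chains Slc7a5, Slc7a6, Slc7a7 and Slc7a8 divided by the heavy chain was 0.501 ± 0.0663 (SD, n = 3) in late controls and 1.28 ± 0.0685 (n = 3) in late knockouts. The same ratio was 0.564 ± 0.0630 (n = 4) in early controls and 0.705 ± 0.0853 (n = 4) in early knockouts. The late ranges did not overlap. Of the early knockouts, replicate 4, the library with conflicting labels, was at 0.579 and within the control range of 0.503 to 0.651, and the other 3 were above it at 0.735 to 0.769. Slc7a5 made up 88.7% of the summed light-chain level in late knockouts and 21.8% in late controls, and 48.9% and 24.8% in the early groups. These are ratios of RNA per length, and they say nothing of how many chains pair in the membrane.

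Among the cationic carriers, which bring in arginine, lysine and ornithine, Slc7a3 (CAT3) went from near absence to a high level late. Slc7a3 stood at 42.5, 46.2 and 57.1 CPM in the late knockouts and at 0.0326, 0.189 and 0.480 CPM in the late controls. These are 4706 counts in knockouts against 23 counts in controls in all. It rose 200.2-fold (log2 7.64 ± 0.40, edgeR adjusted p = 9.34e-07). The size of this fold rests on the few control counts, and the groups were far apart in every library. Early it had 41 counts in the 4 knockout libraries and 10 in the 4 controls, with 0.190, 0.810, 0.499 and 0.827 CPM against 0.0598, 0.383, 0.128 and 0.0593 CPM, and was not tested.

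Slc7a1 (CAT1), the widely expressed carrier of the same substrates, stood at 219, 225 and 177 CPM in late knockouts and at 40.2, 36 and 56.4 CPM in late controls. It rose 4.68-fold (log2 2.23 ± 0.19, edgeR adjusted p = 1.13e-05) with no overlap. At 5 weeks Slc7a1 stood at 76.8, 71.1, 60.5 and 63.0 CPM in knockouts and at 107, 117, 58.5 and 74.7 CPM in controls, which overlapped and were not called (log2 -0.40 ± 0.17, adjusted p = 0.464).

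Slc7a2 (CAT2) fell late, from 4.43, 5.82 and 6.15 CPM in controls to 3.19, 2.67 and 1.78 CPM in knockouts (log2 -1.10 ± 0.24, edgeR adjusted p = 0.00317). Slc7a4, a relative whose substrate is unsettled, stood at 0.211, 0.284 and 0.137 CPM in late knockouts and at 2.80, 2.55 and 2.07 CPM in late controls, a fall of 11.4-fold (adjusted p = 1.58e-05). The 3 arginine carriers CAT1, CAT2 and CAT3 thus did not move one way. Early, Slc7a2 stood at 4.56, 4.63, 6.28 and 7.92 CPM in knockouts and 4.85, 6.19, 3.85 and 6.94 CPM in controls, which overlapped. Slc7a4 stood at 2.85, 2.20, 2.79 and 2.42 CPM in early knockouts and 2.87, 3.00, 2.88 and 2.90 CPM in early controls, just apart and not called (log2 -0.18 ± 0.15, adjusted p = 0.735). Slc7a4 shares 13.3% of its exon bases with P2rx6 on the opposite strand, and P2rx6 fell too (log2 -4.27, adjusted p = 1.02e-05). The library kit does not mark strand, so reads of that overlap cannot be told apart.

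The Slc6a carriers rose together late. Slc6a9 (GlyT1, a glycine carrier) stood at 64.9, 66.6 and 74.5 CPM in late knockouts and at 3.65, 3.49 and 3.54 CPM in late controls. In the early hearts it stood at 8.11, 7.70, 7.68 and 4.73 CPM in knockouts and at 2.21, 3.63, 3.33 and 3.56 CPM in controls. No knockout library overlapped a control at either time, and replicate 4 was the lowest early knockout here as well. The rise was 2.22-fold early (log2 1.15 ± 0.19, edgeR adjusted p = 0.0172) and 19.3-fold late (log2 4.27 ± 0.13, adjusted p = 1.02e-07).

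The early call of Slc6a9 rested on several libraries: it was lost when knockout replicate 2 or 3 or control replicate 1 or 3 was left out, with adjusted p of 0.0513 to 0.0660. Without replicate 4 it was 1.30 on the log2 scale (adjusted p = 0.00116). Of the exon bases of Slc6a9 (chr4:117834506-117875198, plus strand), 38.6% are shared with genes on the other strand. Of the 3 overlapping genes Gm17114 was not analysed here, Ccdc24 was at group means of 0.108 to 0.231 CPM, and B4galt2 was at a mean of 9.68 CPM in late knockouts and 6.89 CPM in late controls and was not called (log2 0.49, adjusted p = 0.0665).

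Slc6a8, the creatine carrier, stood at 470.1, 507 and 437 CPM in late knockouts and at 179, 187 and 205 CPM in late controls. It rose 2.48-fold (log2 1.31 ± 0.12, edgeR adjusted p = 1.67e-05). In the early hearts Slc6a8 stood at 151, 163, 198 and 205 CPM in knockouts and at 217, 206, 192 and 198 CPM in controls, which overlapped (log2 -0.18 ± 0.09, adjusted p = 0.521).

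Slc6a6, the taurine carrier, stood at 416, 420.2 and 280.0 CPM in late knockouts and at 162, 174 and 200.2 CPM in late controls, a rise of 2.08-fold (adjusted p = 0.000584). The lowest knockout, replicate 3, still lay above every control, and without it the log2 value was 1.24 in place of 1.06. Slc6a17, a vesicular carrier of neutral amino acids, rose least (log2 0.68 ± 0.20, adjusted p = 0.0145), and its call was lost without knockout replicate 2 or control replicate 2.

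**Figure D2:**
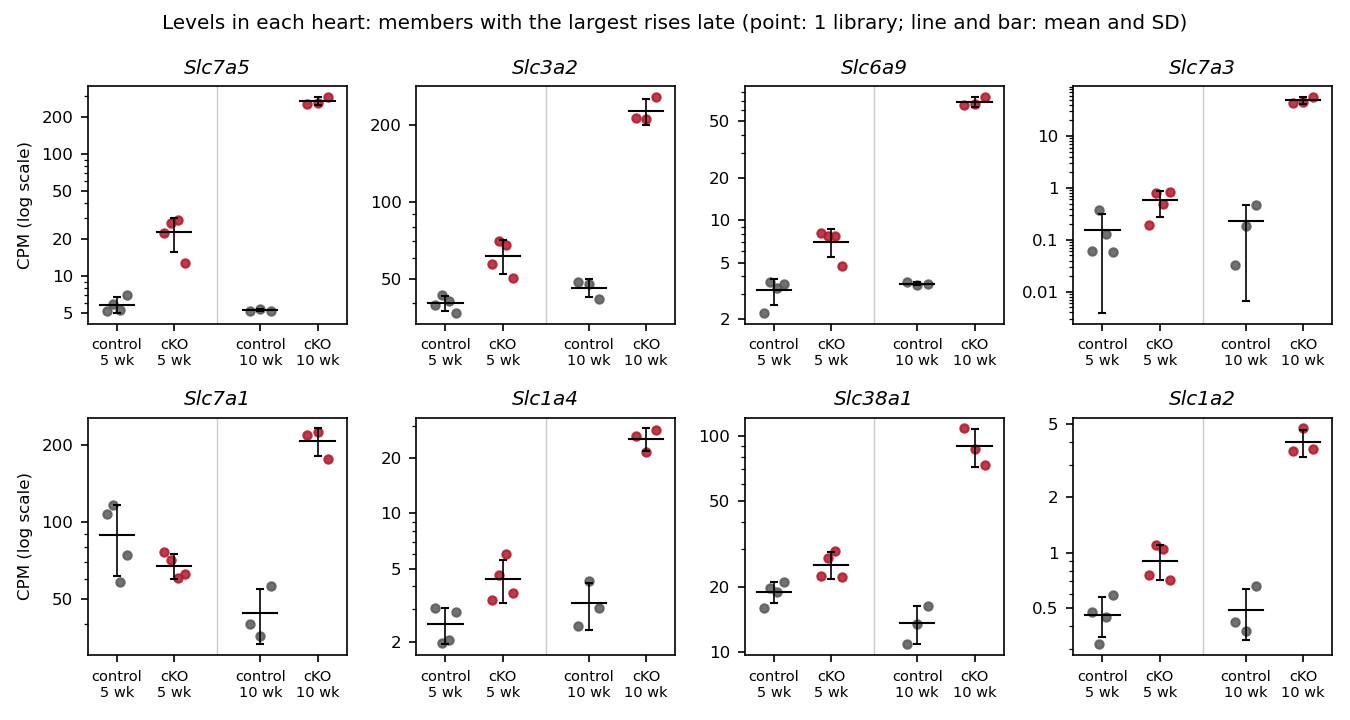
CPM in each library on a log axis for the 8 members with the greatest late rises, by genotype and weeks after tamoxifen; points are libraries, and lines and bars are the mean and SD. In all 8 panels the 3 late knockouts lie above the 3 late controls, and Slc7a5, Slc3a2, Slc6a9, Slc1a2, Slc1a4 and Slc38a1 are separated early as well, the first 3 of them called.

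In Slc1a, the glutamate and small neutral carriers went in both directions late. Slc1a4 (ASCT1, which carries serine, alanine and cysteine) stood at 26.3, 21.4 and 28.4 CPM in knockouts and 2.44, 4.28 and 3.03 CPM in controls, a rise of 7.80-fold (log2 2.96 ± 0.21, edgeR adjusted p = 5.38e-06). In the early hearts Slc1a4 stood at 3.36, 4.63, 5.98 and 3.66 CPM in knockouts and 3.05, 1.98, 2.05 and 2.90 CPM in controls. Those groups did not overlap, and the difference did not pass the test (log2 0.82 ± 0.21, adjusted p = 0.161).

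Slc1a2 (GLT-1, a glutamate carrier best known from astrocytes) stood at 3.55, 4.72 and 3.63 CPM in late knockouts and 0.423, 0.377 and 0.660 CPM in late controls. It rose 8.07-fold (log2 3.01 ± 0.27, edgeR adjusted p = 1.7e-05) from a low level. Its early libraries, at 0.761, 1.10, 1.05 and 0.709 CPM against 0.479, 0.319, 0.449 and 0.593 CPM, did not overlap and were not called (log2 0.97 ± 0.29, adjusted p = 0.241).

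Slc1a7, another glutamate carrier, fell late to 0, 3 and 3 counts in knockouts from 22, 18 and 30 counts in controls (log2 -3.48 ± 0.58, edgeR adjusted p = 0.000668). The late knockouts were at 0, 0.0853 and 0.103 CPM and the late controls at 0.716, 0.566 and 0.900 CPM. Its early libraries, at 0.444, 0.405, 0.249 and 0.591 CPM in knockouts and 0.778, 1.08, 0.833 and 1.24 CPM in controls, did not overlap and were not called (log2 -1.23 ± 0.31, adjusted p = 0.144). Slc1a3 (GLAST) fell from 1.86, 3.52 and 3.81 CPM to 1.72, 1.36 and 1.54 CPM (log2 -0.99 ± 0.29, adjusted p = 0.0133), and the call was lost without control replicate 2 or 3. Slc1a5 (ASCT2, a glutamine carrier) was at 39.1 to 41.3 CPM in late knockouts and 43.1 to 51.2 CPM in late controls, without overlap and not called (log2 -0.28 ± 0.11, adjusted p = 0.0578). Slc1a5 was called down without knockout replicate 3 (log2 -0.29, adjusted p = 0.0324) and without control replicate 1 (log2 -0.34, adjusted p = 0.0456). Slc1a1 was not called either (log2 -0.25 ± 0.25, adjusted p = 0.394).

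In Slc38a, the system A carriers Slc38a1 and Slc38a2, which load cells with glutamine and alanine, rose while the related Slc38a4 fell. Slc38a2 stood at 751, 685 and 512 CPM in late knockouts and at 140, 146 and 170 CPM in late controls, a rise of 4.26-fold (log2 2.09 ± 0.17, edgeR adjusted p = 9.01e-06). Slc38a1 stood at 108, 87.1 and 73.1 CPM in late knockouts and at 10.9, 13.5 and 16.3 CPM in late controls, a rise of 6.59-fold (log2 2.72 ± 0.20, adjusted p = 5.2e-06). For both genes knockout replicate 3 was the lowest knockout and lay far above the controls.

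Early, Slc38a1 stood at 22.6, 27.4, 29.3 and 22.2 CPM in knockouts and at 16.0, 19.9, 18.9 and 21.0 CPM in controls, apart but not called (log2 0.42 ± 0.11, adjusted p = 0.161). Slc38a2 stood at 238, 259, 217 and 237 CPM in early knockouts and at 221, 222, 195 and 239 CPM in early controls, which overlapped. Slc38a4 fell late from 10.0, 10.1 and 10.1 CPM to 6.05, 3.44 and 3.80 CPM (log2 -1.18 ± 0.21, edgeR adjusted p = 0.00109). Its early libraries overlapped, at 12.7, 13.2, 11.4 and 9.39 CPM in knockouts and 13.9, 11.1, 14 and 11.6 CPM in controls. These 3 genes are neighbours on chromosome 15, with 44.5 kb between Slc38a1 and Slc38a2 and 295 kb between Slc38a2 and Slc38a4.

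Slc38a3, a glutamine carrier of the system N type, fell late from 113, 105 and 132 CPM to 79.3, 80.6 and 73.1 CPM (log2 -0.58 ± 0.12, edgeR adjusted p = 0.00226). Slc38a6 fell from 5.6, 5.91 and 5.76 CPM to 2.53, 2.56 and 2.78 CPM (log2 -1.14 ± 0.16, adjusted p = 0.000213). Slc38a11 fell from 0.879, 1.35 and 1.11 CPM to 0.421, 0.171 and 0.171 CPM (log2 -2.11 ± 0.40, adjusted p = 0.00137). None of these 3 overlapped between the late groups.

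Early, Slc38a3 stood at 83.7, 86.8, 88.3 and 101 CPM in knockouts and 109, 103, 102 and 101 CPM in controls, just apart. Slc38a6 stood at 4.88, 5.09, 4.59 and 5.08 CPM in early knockouts and 4.67, 5.16, 5.58 and 4.8 CPM in early controls. Slc38a11 stood at 1.27, 0.926, 0.798 and 0.709 CPM in early knockouts and 0.838, 1.08, 1.22 and 1.13 CPM in early controls. The early ranges of Slc38a6 and Slc38a11 overlapped, and none of the 3 was called.

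Slc38a7, a lysosomal carrier, rose (log2 0.48 ± 0.11, edgeR adjusted p = 0.00377), and Slc38a9, an arginine sensor upstream of mTORC1, fell (log2 -0.39 ± 0.15, adjusted p = 0.0442). The call of Slc38a9 was lost whichever library was left out, and without knockout replicate 3 its log2 value was -0.26. Slc36a1, a proton-coupled carrier of lysosomes, was not called (log2 0.20 ± 0.15, adjusted p = 0.285), nor were Slc36a4 (log2 0.38, adjusted p = 0.0911) and Slc38a10 (log2 0.19, adjusted p = 0.121). Without late knockout replicate 3, Slc36a1 and Slc36a4 were called up.

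The most strongly reduced member was Slc36a2, a proton-coupled carrier of glycine, proline and alanine at chr11:55158470-55185077 on the minus strand. Slc36a2 stood at 0.903, 0.398 and 0.240 CPM in late knockouts and at 25.0, 21.3 and 20.5 CPM in late controls. It fell 42.5-fold (log2 -5.41 ± 0.33, edgeR adjusted p = 2.01e-06). Early it stood at 30.3, 25.4, 21.3 and 23.1 CPM in knockouts and at 24.8, 24.5, 27.2 and 20.6 CPM in controls, which overlapped (log2 0.04 ± 0.11, adjusted p = 0.94). Its neighbour Slc36a1, 19.3 kb away, did not share the late fall.

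In Slc43a, Slc43a2 (LAT4, a carrier of large neutral amino acids) rose late (log2 0.54 ± 0.18, edgeR adjusted p = 0.0279), a call lost in 4 of the fits that left out 1 library. Slc43a1 (LAT3) was not called (log2 -0.41 ± 0.18, adjusted p = 0.0668). Slc43a3, a purine nucleobase carrier, stood at 171, 148 and 111 CPM in late knockouts and 138, 146 and 150 CPM in late controls, which overlapped (log2 -0.01 ± 0.16, adjusted p = 0.96). Early, Slc43a3 stood at 76.9, 86.6, 105 and 120.4 CPM in knockouts and 107, 112, 115 and 126 CPM in controls, which overlapped too.

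**Figure D3:**
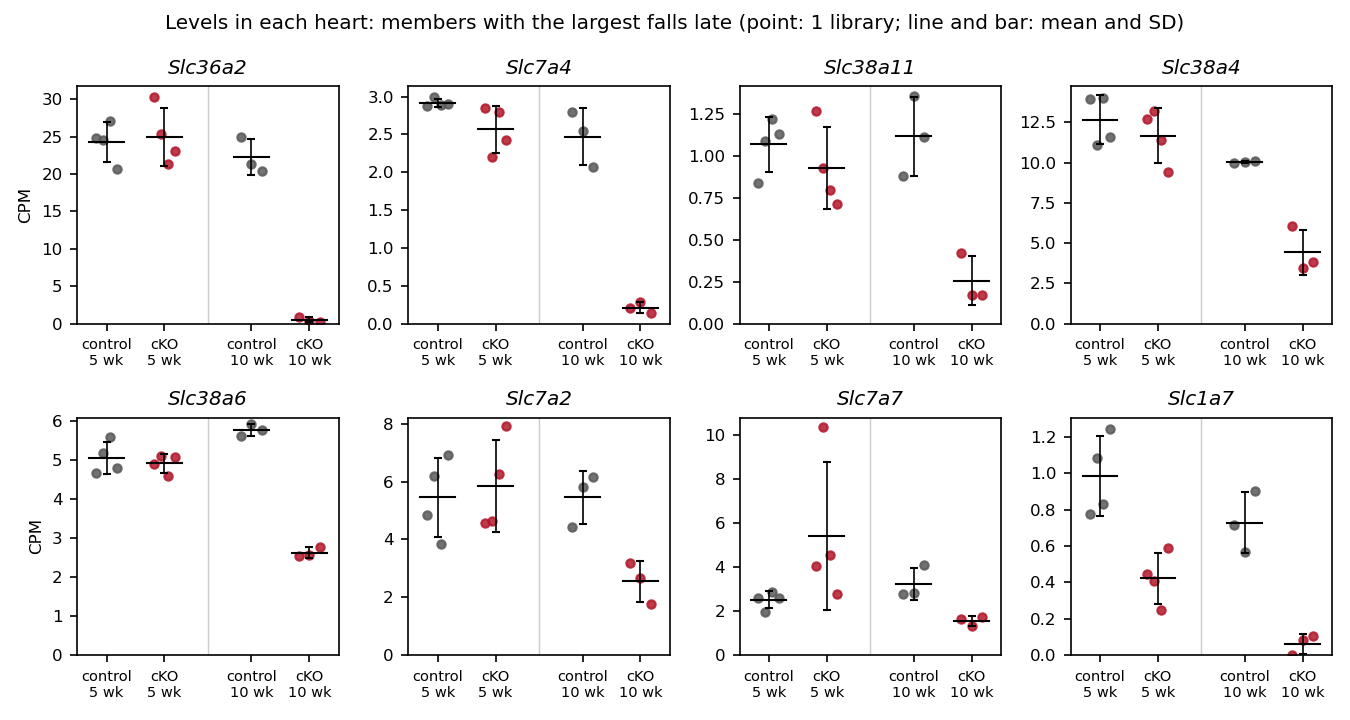
CPM in each library on a linear axis for the 8 members with the greatest late falls, by genotype and weeks after tamoxifen; points are libraries, and lines and bars are the mean and SD. The late knockouts lie below the late controls in all 8 panels, and Slc36a2 goes from 20.5 to 25.0 CPM in late controls to under 1 CPM in each late knockout.

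Levels between genes were set side by side per kilobase of exon. In control hearts the highest were Slc6a8 (39.0 CPM per kb early, 36.5 late), Slc43a3 (25.7 early, 32.4 late) and, as the third, Slc38a2 early (24.8) and Slc38a3 late (22.1). In late knockouts Slc6a8 was still first (90.5 ± 6.70 CPM per kb, SD, n = 3), followed by Slc38a2 (73.5 ± 14), Slc7a5 (73.1 ± 5.34) and Slc3a2 (64.6 ± 7.57). The levels of Slc38a2, Slc7a5 and Slc3a2 differed by less than the spread of Slc38a2. Slc7a5 ranked 17 of the 34 members in late controls and 3 in late knockouts, and Slc36a2 ranked 9 and 31.

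Summed over the 34 members, the level was 480 to 523 CPM per kb in late knockouts and 200.0 to 223 CPM per kb in late controls. Early, the sums were 201 to 216 CPM per kb in knockouts and 201 to 212 CPM per kb in controls, which overlapped. The abundant rising members set the late sum, since the members that fell were mostly low.

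**Figure D4:**
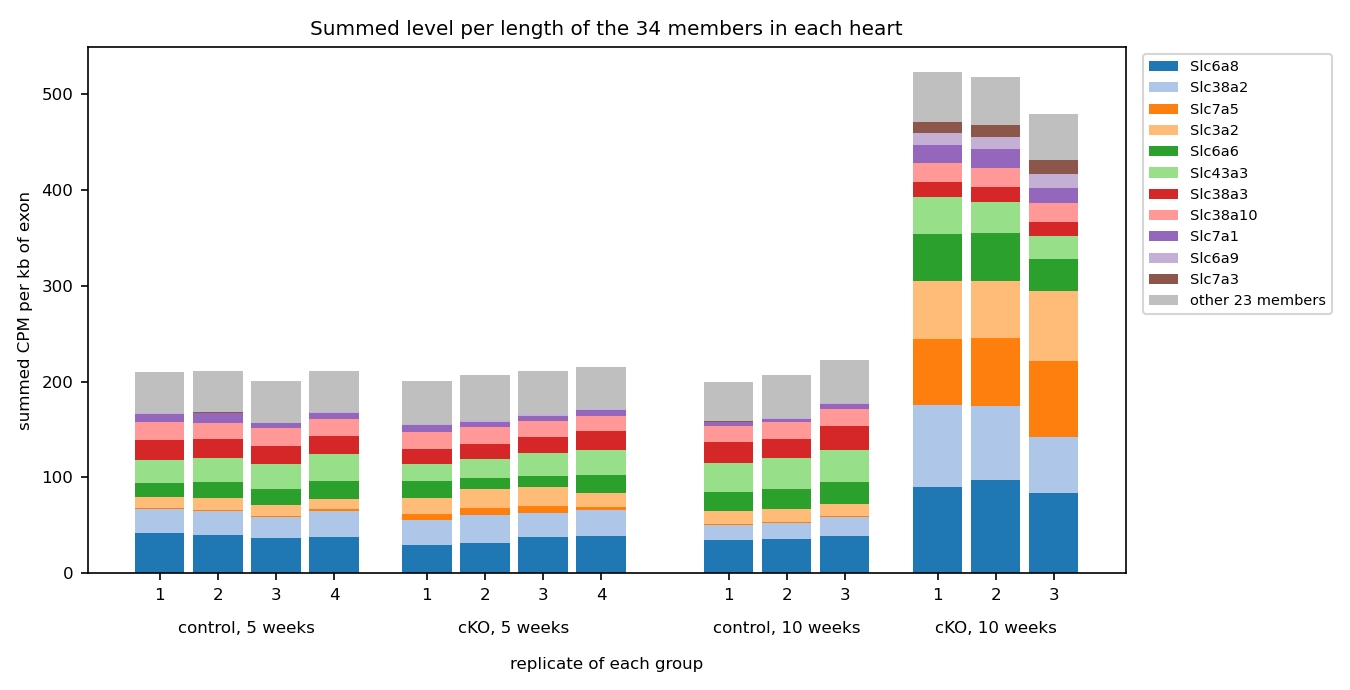
Stacked CPM per kb of exon of the 34 members in each library, with the leading members in colours of their own. Late, the knockouts reach 480 to 523 CPM per kb and the controls 200.0 to 223 CPM per kb, and early the 2 groups overlap.

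The knockout effect itself was then compared between the times in 1 model over all 14 libraries. The difference passed the test for 25 of the 34 members, with 15 more positive and 10 more negative late, where 61.2% of all genes passed (29.8% and 31.3%). The members' median difference was 0.32, beside -0.01 over all genes. The widest were Slc7a3 (log2 5.77 ± 1.17, edgeR adjusted p = 0.000529), Slc36a2 (-5.43 ± 0.31, adjusted p = 1.33e-09) and Slc7a5 (3.74 ± 0.29, adjusted p = 3.12e-08). The other 2 early calls also differed, Slc6a9 by 3.14 ± 0.24 (adjusted p = 3.2e-08) and Slc3a2 by 1.71 ± 0.16 (adjusted p = 3.12e-07). Slc7a1 differed by 2.65 ± 0.29 (adjusted p = 1.3e-06). By subfamily 4 of 4 Slc6a genes, Slc3a2 and 4 of 8 Slc7a genes differed upward, and 4 Slc38a genes each way. No Slc43a gene passed. The calls of Slc38a10 (0.25) and Slc38a3 (-0.36) were lost in several other settings.

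Of the carriers outside the rule, Slc7a11, Slc6a12 and Slc38a5 are described without a test. Slc7a11, the light chain of the cystine and glutamate exchanger, had 6, 18, 16 and 4 counts in early knockouts and 1, 0, 0 and 1 in early controls. Late, Slc7a11 had 230, 305 and 229 counts in knockouts and 0, 0 and 2 in controls. It missed the rule because only 2 early libraries reached 10 counts, while Slc7a3, just inside, reached it in 3, all of them knockouts. Slc6a12, a betaine and GABA carrier, had 74, 112 and 93 counts in late knockouts and 2 in each late control, and at most 2 in any early library. Slc38a5 had 18, 21 and 43 counts in late knockouts and 13, 18 and 4 in late controls. Its late CPM overlapped, at 0.542 to 1.47 in knockouts and 0.120 to 0.566 in controls. Slc6a7, which reached 10 counts in 2 early and 6 late libraries, was not read by group.

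Promoters were read because several of these genes moved together. In the RefSeq table for GRCm38.p6, which gives 250 bases before and 50 after each listed start, 23 of the 34 members had an entry. TGATGNAA, a core of the C/EBP-ATF response element, was searched on both strands and lay in 2 of these 23 members (8.70%) and in 1219 of 27025 genes of the table (4.51%). It was found in 1 of 10 members that rose late and in 1 of 7 that fell. Slc7a5, Slc7a3 and Slc38a1 had no entry. The stretches below are shown 5′ to 3′ on the gene's strand, with each match in capitals: Slc1a4, which rose (chr11:20332710-20332757, minus strand, match beginning 4 bases before the start and running across it), Slc7a7, which fell (chr14:54417938-54417985, minus strand, match beginning 1 base before a listed start and running across it, with a second match at chr14:54418038-54418125, 141 bases before that start), and, outside the rule, Slc7a11 (chr3:50443614-50443700, minus strand, matches 47 and 66 bases before the start).
Slc1a4: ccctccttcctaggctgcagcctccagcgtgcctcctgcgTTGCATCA
Slc7a7: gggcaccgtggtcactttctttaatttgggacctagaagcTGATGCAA
Slc7a7, second match: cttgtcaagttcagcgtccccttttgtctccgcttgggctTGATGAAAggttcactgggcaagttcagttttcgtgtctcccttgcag
Slc7a11: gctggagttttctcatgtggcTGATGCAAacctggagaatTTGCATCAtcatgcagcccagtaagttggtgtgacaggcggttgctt
The first Slc7a7 match also lies 243 bases before another start listed for that gene. A match is a run of letters and not a shown binding site. No match lay in the listed windows of Slc3a2, Slc6a9, Slc7a1, Slc1a2 or Slc38a2, which says only that these letters are not there.

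Genes that work with the carriers were read from lists chosen with earlier results of these data known. A list's share above the background may follow in part from that choice. The share of a list called late ran from 60.0% to 84.6% over the 7 lists, beside 65.0% of all genes tested, so most of these shares are near the background. Of 13 genes of the eIF2alpha kinases and the ATF4 branch, which respond to amino acid shortage and other stresses, 3 rose early (Atf4, Atf5 and Trib3) and 9 rose late, with none falling and a late median of 1.86. The shares that rose were 23.1% early and 69.2% late, beside 0.517% and 31.8% of all genes. Trib3, a pseudokinase induced by ATF4, had a log2 fold change of 1.84 early (edgeR adjusted p = 0.0106) and 5.26 late (adjusted p = 5.17e-07). Late, Atf4 rose by 2.91 (adjusted p = 1.59e-06) and Atf5 by 3.24 (adjusted p = 1.06e-06), both transcription factors of this branch. Ppp1r15a, which directs eIF2alpha dephosphorylation, rose by 3.05 (adjusted p = 6.97e-07).

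Of 26 genes that pass amino acid signals to mTORC1, 1 rose early (Sesn2, a leucine sensor, log2 0.94, edgeR adjusted p = 0.0406), and 13 rose and 5 fell late (69.2% called), with a median of 0.39. Sesn2 (log2 3.96, adjusted p = 4.25e-06) and the Rag GTPases Rragc (1.62, adjusted p = 2.67e-06) and Rraga (1.04, adjusted p = 5.14e-05) were among those that rose late. Of 11 tested genes from cystine to glutathione, 6 rose and 2 fell late (72.7% called), with a median of 0.83. Gss, the glutathione synthetase, had a log2 fold change of 3.13 (adjusted p = 1.1e-06) and Gclm, a subunit of the rate-limiting ligase, one of 2.01 (adjusted p = 2.67e-06). Ggt5, which splits extracellular glutathione, fell (log2 -1.50, adjusted p = 1.3e-05).

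Genes that break down branched-chain amino acids, which enter through Slc7a5 among other carriers, or that control the breakdown, mostly fell late. Of 13 such genes 10 fell (76.9%, beside 33.2% of all genes) and 1 rose, with a median of -0.84. Ppm1k, the phosphatase that activates the branched-chain keto acid dehydrogenase, fell by 3.08 on the log2 scale (edgeR adjusted p = 1.3e-06) and Mccc2 by 1.91 (adjusted p = 4.25e-06). Bckdk, the kinase that acts against Ppm1k on that dehydrogenase, fell too (log2 -0.55, adjusted p = 0.00429). The one that rose was Bcat1, a cytosolic transaminase (log2 4.23, adjusted p = 2.74e-07). Of 8 glutamine and glutamate enzymes 5 rose and 1 fell late (75.0% called; Gpt, log2 -1.84, adjusted p = 7.81e-05), with Glul, the glutamine synthetase, at 0.88 and Glud1 at 0.79.

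Of 5 genes for taurine and creatine synthesis 3 fell and none rose late (60.0% called). Gatm and Gamt, the 2 enzymes of creatine synthesis, fell by 2.46 and 4.09 on the log2 scale (edgeR adjusted p = 5.6e-05 and 5.75e-06), while the creatine carrier Slc6a8 rose. Both enzymes were low already in late controls, at means of 2.91 and 4.79 CPM, against 0.531 and 0.280 CPM in late knockouts. A link to Slc6a8 was not tested. Of 6 other amino acid carriers tested 66.7% were called late: 1 rose (Pqlc2, log2 0.59, adjusted p = 0.00734) and 3 fell: Slc16a10, a carrier of aromatic amino acids (log2 -1.45, adjusted p = 1.49e-05), Mfsd12 (-1.24) and Slc15a4 (-0.65). None of these last 5 lists, from glutathione on, had a gene called early.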

How the data were processed

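Reads were trimmed with Trimmomatic 0.36 and aligned to GRCm38 with STAR 2.6.0c, per the submitters' processing notes, from poly(A) libraries of a kit that does not mark strand, per the labels' protocols. The authors deposited raw counts per gene in 2 tables, early and late. How reads were assigned to genes (tool, annotation, strand) was not given in the sources used here. Each table was fitted alone in edgeR 4.0.16 (R 4.3.3, limma 3.58.1) with TMM factors and the quasi-likelihood F test, on genes kept by filterByExpr at a minimum count of 10 and a minimum total of 15. Benjamini-Hochberg adjustment ran over all genes tested, and calls needed an adjusted p under 0.05. The difference between times is a contrast over 14 libraries. CPM use TMM-scaled totals of each table, with 1 CPM worth 15.6 to 20.1 counts early and 29.2 to 35.2 late. SE was derived as the size of the log2 fold change over √F. Exon lengths are from GENCODE M21 (GRCm38). Values are given in every library for members called early, the 8 greatest late rises and falls, and the 3 highest per length in controls; others were added to describe each subfamily. The members, lists and motif were chosen with earlier results of these data known. Alternatives were RLE factors, DESeq2 1.42.0, no filter, a replicate block, all 14 libraries together, early knockout replicate 4 as a control, and leaving out each library. The scripts were tested on simulated data.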

Additional observations from a re-analysis of the deposited data

Results flagged for a closer look

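One early knockout library stood apart from its group for Slc6a9: replicate 4, at 4.73 CPM, where the nearest of the others was at 7.68 CPM. It was 1 of 68 groups of 4 libraries looked at, and chance flags about 1 in 20 groups. This is the library whose genotype field gives the control genotype, and it was above every control for Slc6a9, Slc7a5 and Slc3a2.

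For 25 members (73.5%) the knockout effect differed between the late and the early table in edgeR's test of the difference itself (log2, late minus early). Among all genes tested 61.2% passed the same test (29.8% up and 31.3% down), so the count is not particular to the carriers. It was more positive late for Slc7a3 (5.77), Slc7a5 (3.74), Slc6a9 (3.14), Slc7a1 (2.65), Slc38a1 (2.32), Slc1a4 (2.16), Slc1a2 (2.06), Slc38a2 (1.99), Slc3a2 (1.71), Slc6a8 (1.51), Slc6a6 (1.23), Slc7a6 (1.04), Slc6a17 (0.98), Slc38a7 (0.41) and Slc38a10 (0.25). It was more negative late for Slc36a2 (-5.43), Slc7a4 (-3.30), Slc1a7 (-2.21), Slc7a7 (-2.15), Slc38a11 (-1.87), Slc7a2 (-1.18), Slc1a3 (-1.08), Slc38a6 (-1.08), Slc38a4 (-1.04) and Slc38a3 (-0.36). Time and table cannot be told apart in these differences. The call of Slc38a10 was lost with no filter, with the replicate block, with early knockout replicate 4 as a control and when some single libraries were left out. That of Slc38a3 was lost with no filter, with the replicate block and without late control replicate 3.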

How the results depend on the processing

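No member's direction was reversed where it was called. Early calls depended most on the setting: 3 members up became 6 with DESeq2 and 6 with no filter (adding Slc1a4, Slc38a1 and Slc7a7 in each), and 2 to 3 when 1 library was left out. Early members down went from 0 to 1 with no filter (Slc7a1) and to 1 with knockout replicate 4 as a control (Slc38a3), and were 0 to 1 with 1 library left out. By subfamily, early Slc1a up was 1 and Slc38a up 1 with DESeq2 and with no filter, in place of 0; Slc7a up was 2 with DESeq2, no filter or replicate 4 as a control, in place of 1; Slc7a down was 1 with no filter, and Slc38a down 1 with replicate 4 as a control and 0 to 1 with 1 library left out; Slc3a up and Slc6a up were 0 to 1 with 1 library left out. All genes called early were 83, and 176 with DESeq2, 388 with no filter, 162 with replicate 4 as a control and 45 to 181 with 1 library left out: 181 without knockout replicate 4, 46 without knockout replicate 2, and 54, 46 and 45 without control replicates 2, 3 and 4. Late members up were 13 to 18 and down 9 to 11 with 1 library left out, where 55.9% to 69.7% of all genes tested were called. For the difference between times, that share of all genes was 56.9% to 64.2%. Late Slc1a down was 1 to 3, Slc36a up 0 to 2 and Slc43a up 0 to 1 with 1 library left out, and with all 14 libraries together Slc36a up was 1 and Slc43a down 1. For the difference between times, Slc36a up was 0 to 2 and Slc43a up 0 to 1 with 1 library left out, and Slc43a up was 1 with no filter and 1 with replicate 4 as a control.

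Replicate numbers are shared between the groups, and same-numbered libraries correlated at -0.0905 to -0.0403 early and -0.553 to -0.0648 late, which shows no pairing by number. Late libraries of different numbers correlated at -0.300 to 0.465, highest for knockout replicate 3 with control replicate 1. What such libraries share was not tested. With the replicate block, early members up were 2, with Slc6a up at 0 (Slc6a9 edgeR adjusted p = 0.0524). Late members were then 15 up and 10 down, and the difference had 14 up and 9 down. Of all genes tested with the block, 0.577% were called early, 56.0% late and 55.0% for the difference. In the early libraries a member under about 1 CPM rests on fewer than 20.1 counts, which limits Slc1a2, Slc1a7, Slc38a11 and Slc7a3.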
